A study of Mus musculus with 7 samples.

Results

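Gene expression in untransduced mouse cortical neurons, called blank neurons here, was measured on 3 of the 7 arrays of the series. The 3 samples carry the replicate numbers 5, 6 and 7 and were chosen by their treatment label, naïve, so no measured value entered the choice. Blank neurons came from the cortex of C57/Bl6J embryos at embryonic day 16 (E16) and were harvested after 16 days in vitro. By their treatment label they carried no transgene or hairpin, although a free-text label mentions hairpins for these samples. The remaining 4 samples, neurons of the same strain, age and days in vitro transduced with a luciferase hairpin, enter no comparison here. The cells had been dissociated from whole cortex and grown in serum-free medium, so each array reads a mixed culture, and fewer cells of a type cannot be told apart from less RNA per cell. Culture was planned in quadruplicate, and 1 untransduced sample was dropped by the authors for the quality of its RNA. Litter, culture day and embryo sex are not given in the sources used here, so the spread between the 3 arrays may be partly technical.

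Primary cultures of embryonic cortex hold postmitotic glutamate neurons of the cortical plate together with GABA interneurons that migrated in from the ventral forebrain. Over the weeks in culture these neurons extend axons and dendrites, form synapses and begin to fire. Neural progenitors that come along with them can divide and give rise to astrocytes and oligodendrocyte precursors, whereas microglia, vessels and meninges enter with the dissected tissue.

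The deposited blank columns lay 1 row lower than their probe set names, and they were moved up by 1 row before any value was used. Within the blank arrays, the log2 means of 2 probe sets of the same gene had r = 0.452 across 8468 genes after the move and between 0.0956 and 0.118 at the other positions tried. This correlation is across genes, which are not independent replicates. After controls and probe sets with _x in the name were left out, 42596 probe sets remained, of which 32907 named a single gene, 781 named several and 8908 named none. The single-gene probe sets covered 18093 genes, and the probe set with the highest mean stands for a gene with several. Levels are intensities on a linear scale, normalized by RMA. A level under 50 was taken as absence of expression. The study's methods used the same limit. Different probe sets are not on a common scale, so levels of different genes are listed side by side but no gene is called more abundant than another from a small gap.

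Of the 18093 genes, 11480 stood at 50 or more on all 3 arrays, which is 63.4% of all genes measured. Another 5972 genes, or 33.0%, stood under 50 on all 3, and 641 lay on both sides of 50. Counts of list members below are to be read against these shares. A level of 1000 or more on every array was reached by 2155 genes, and 45 genes reached 10000 on every array. The levels formed a broad peak below 50 and a second above it, with no gap between them at 50 in the plot of all levels. The choice of probe set mattered for genes with several. Over 8469 such genes the probe sets of a gene spanned a median of 2.14 on the log2 scale, and in 3471 of them (41.0%) a probe set at 50 or more on all arrays stood beside another under 50 on all.

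**Figure D1:**
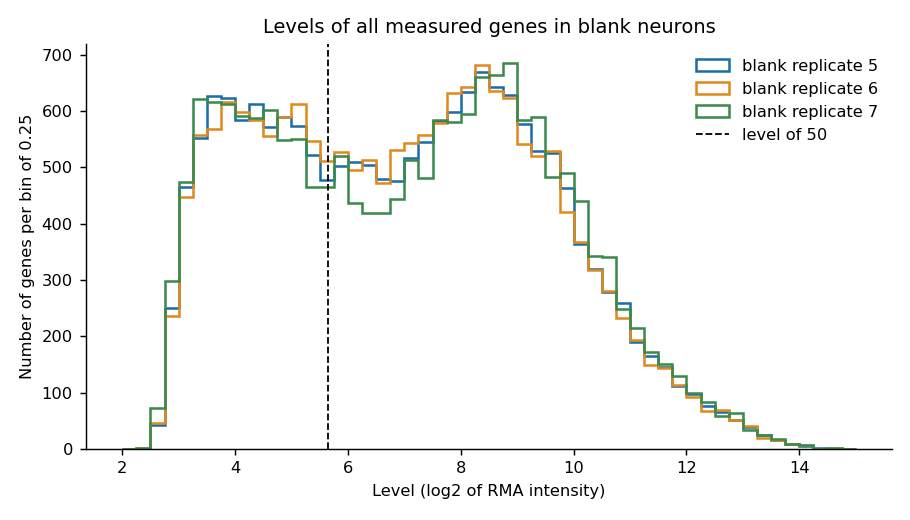
Number of the 18093 genes (y axis) by level on each blank array (x axis, log2 of RMA intensity, bins of 0.25), with 1 line per array and the level of 50 dashed. The 3 lines run close together, with replicate 7 lower than the others just above 50 and higher near log2 levels of 10.

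The 25 genes with the highest mean level were led by genes of the cytoskeleton. *Tmsb10*, whose product binds actin monomers, had the highest level, 22917, 23386 and 23542 on replicates 5, 6 and 7. This order of replicates is kept for all values below. The related *Tmsb4x* stood at 17670.3, 17946 and 18119 and *Actb*, which encodes beta-actin, at 18851, 18406 and 15999.5. Other cytoskeletal genes among the 25 were *Actg1*, *Pfn2*, the tubulins *Tubb2a* and *Tubb5*, the microtubule regulators *Stmn1* and *Stmn2*, *Dpysl2*, which acts in axon growth, and *Basp1*, which encodes a membrane protein of growth cones. *Basp1* stood at 16008, 16068 and 16271 and *Stmn1* at 15455, 16189 and 15782, so both varied little between arrays.

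Membrane and secretory genes formed a further group among the 25. They comprised *Gpm6a*, a membrane glycoprotein of neurons, *Atp1b1*, a subunit of the sodium pump, *Rtn1*, a protein of the endoplasmic reticulum, and *Cpe*, the carboxypeptidase that trims neuropeptide precursors. *Cpe* stood at 14888, 15338 and 16119. *Hmgcs1*, which encodes an early enzyme of cholesterol synthesis, was also among them, at 16242, 16449 and 17022. Genes used by all cells made up much of the rest: *Fth1* (ferritin), *Eef1a1* (translation), *Tpt1*, *Rps28* (ribosome), *Cox6a1* (respiratory chain) and *Pgk1* (glycolysis). The remaining genes of the 25 were *Ndrg4* and the 14-3-3 genes *Ywhab* and *Ywhae*. With the median probe set of a gene in place of the highest, the mean of *Tmsb10* was 8331 in place of 23282. Of 14 housekeeping genes with a named probe set all 14 stood at 50 or more, from *Gusb* at 71.6, 63.5 and 78.5 up to *Actb*.

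Markers of neurons were present throughout. All 16 general neuron markers stood at 50 or more on all arrays (63.4% of all genes did), with a median level of 4214 against 135.0 over all genes. *Stmn2* and *Gap43*, genes of growing axons, stood at 11729.7, 12307 and 12404 for *Stmn2* and at 11323, 11416 and 11227 for *Gap43*. *Map2*, which marks dendrites, stood at 4737, 4726 and 5972, and *Rbfox3*, which encodes the neuronal nuclear antigen NeuN, at 4925, 5056 and 3884. *Dcx*, a marker of young neurons, was still listed at 1424, 1456 and 1525. None of the 16 went against the label of the samples as neurons, and the lowest, *Nefm*, was at 679 ± 90.1 (SD, n = 3).

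The glutamate neuron list had all 10 named members at 50 or more, with a median of 679.6. *Neurod6*, a transcription factor of cortical glutamate neurons, stood at 2361, 2472 and 2938, and *Camk2a*, the calcium-dependent kinase of their synapses, at 1711, 1653 and 1741. The vesicular glutamate transporters *Slc17a7* and *Slc17a6* were both present, at 727, 737 and 1027 for *Slc17a7* and at 309.9, 282 and 389 for *Slc17a6*, both highest on replicate 7. The GABA neuron list had 8 of 9 members at 50 or more, with a median of 190.3. *Gad1*, which encodes a GABA-synthesizing enzyme, stood at 3085, 3452 and 3981, and *Slc32a1*, the vesicular GABA transporter, at 436, 439 and 455. The other synthesizing enzyme, *Gad2*, was at 341, 357 and 387. *Dlx1*, *Dlx2* and *Dlx5*, factors of ventral forebrain progenitors and interneurons, were present and *Dlx6* was under 50 at 32.8, 31.6 and 31.99. Both transmitter classes were thus represented on every array.

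Transcription factors and markers of the cortical layers were present in full, 23 of 23, with a median of 574.8. Upper-layer genes included *Cux1* at 453, 499 and 531 and *Cux2* at 314, 284 and 295. Deep-layer genes included *Fezf2* at 702, 616 and 664, *Bcl11b* at 931, 849 and 839 and *Tle4* at 841, 886 and 1029. *Tbr1*, a factor of early-born deep-layer neurons, stood at 124, 148 and 135, and *Foxp2*, the lowest of the list, was at 62.2, 67.3 and 55.97. Genes of upper and of deep layers were therefore both above 50. Of 10 Cajal-Retzius genes, which mark the earliest cells of the cortical surface, 3 were at 50 or more and 7 were under. The 3 were *Calb2*, *Reln* and *Ndnf*, which interneurons also express, whereas the defining factor *Trp73* stood at 44.7, 46.4 and 46.8.

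Markers of interneuron classes split. Of 29 named members, 22 (75.9%) stood at 50 or more on all arrays, against 63.4% of all genes. Another 5 were under 50 and 2 lay on both sides. *Sst*, the peptide of somatostatin interneurons, stood at 2440.1, 2272 and 2533, and *Calb1* and *Calb2*, which encode calcium-binding proteins, at 2582, 2792 and 2464 for *Calb1* and at 1564, 1581 and 1262 for *Calb2*. *Npy* stood at 155, 141 and 179.5 and *Lhx6*, a factor of interneurons from the medial ganglionic eminence, at 156, 166 and 172. *Pvalb*, which marks fast-spiking cells that mature late, was close to the limit, at 59.6, 52.1 and 55.2. *Vip* was under it, at 26.6, 28.2 and 32.1, as were *Prox1* at 17.2, 20.8 and 10.4, *Nkx2-1* at 28.8, 21.6 and 25.2 and *Erbb4*, the neuregulin receptor of interneurons, at 8.51, 7.12 and 7.61. *Vip* and *Erbb4* each rest on 1 probe set, so no second probe set bears on these levels. *Crh* lay on both sides, at 87.5, 42.01 and 140.5, with replicate 6 lowest.

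Regional markers present were mainly those of the forebrain. All 10 forebrain factors stood at 50 or more, among them *Nr2f1*, which patterns cortical areas, at 2848, 2857 and 2911, *Lhx2* at 829, 999 and 945 and *Emx1*, which marks the cortical progenitor lineage, at 235, 243 and 223. Of 16 midbrain and hindbrain factors, 0 stood at 50 or more on all arrays and 15 were under 50 on all, with *En1* at 7.24, 7.20 and 7.13 and a list median of 24.4. The exception, *Pax5*, was at 56.5, 53.4 and 41.3, which counts as 1 member present without replicate 7. Of 27 *Hox* genes, which pattern hindbrain and spinal cord, 22 were under 50, where 33.0% of all genes were. The 4 at 50 or more had means up to 77.7, with *Hoxc9* at 86.6, 83.7 and 62.9. Thalamic genes were present in 5 of 10, against 63.4% of all genes. The count was 1 at a limit of 100 and 3 with the median probe set. *Gbx2* and *Olig3* were under 50, at 8.83, 9.87 and 11.4 for *Gbx2* and at 11.6, 12.9 and 9.89 for *Olig3*. *Rora*, the highest of that list and also a gene of cortical neurons, was at 293, 329 and 386.

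Striatal genes were present in 10 of 14 (71.4%, near the 63.4% of all genes). *Meis2* stood at 1329, 1321 and 1138 and *Pde10a*, a phosphodiesterase of striatal neurons, at 708, 719.9 and 810.1. *Ppp1r1b*, which encodes DARPP-32, was at 169.4, 188 and 175 and the dopamine receptor genes *Drd1* and *Drd2* at 124, 105 and 161 for *Drd1* and at 56.2, 59 and 71.2 for *Drd2*. The factors *Isl1* and *Ebf1* were under 50, at 21.97, 16.9 and 17.7 for *Isl1* and at 19.6, 21.8 and 16.99 for *Ebf1*. Cortical neurons also express several of these genes, so the list does not separate striatum from cortex. Of 19 genes of monoamine and cholinergic neurons, 11 were under 50 on all arrays, where 33.0% of all genes were. These included *Th* (catecholamine synthesis) at 25.4, 25.99 and 25.5, *Tph2* (serotonin synthesis) at 9.54, 7.24 and 10.3, *Chat* (acetylcholine synthesis) at 17.9, 15.5 and 14.2 and the monoamine transporter *Slc18a2* at 17.7, 20.9 and 23.3. The degrading enzymes *Ache* and *Maoa*, which other cells also express, stood at 607, 560.4 and 646 for *Ache* and at 597, 639 and 556 for *Maoa*.

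Astrocyte genes were present almost in full. Of 20 members, 19 stood at 50 or more, with a median of 1163. *Fabp7*, a fatty acid binding protein of radial glia and astrocytes, stood at 11242, 12765 and 10629, *Aldoc*, a glycolytic enzyme, at 8446, 9399 and 7551, and *Apoe*, a lipid carrier, at 8300.1, 8024 and 8762. The glutamate transporters *Slc1a2* and *Slc1a3* were at 4319, 4588 and 5300.1 for *Slc1a2* and at 1984, 2243 and 2392 for *Slc1a3*. *Gfap*, the intermediate filament of mature astrocytes, was at 345, 473 and 486 and *Aqp4*, the water channel, at 349, 435 and 438, both lowest on replicate 5. *S100b* was near the limit at 60, 87.3 and 69.7, and *Gjb6*, a gap junction gene, was under it at 17.1, 15.6 and 15.2.

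The oligodendrocyte lineage was represented by genes of precursors. All 9 precursor genes stood at 50 or more, with *Olig1* at 2845, 2855 and 2852, *Pdgfra*, the growth factor receptor of precursors, at 1582, 1662 and 1636 and *Sox10* at 461, 422 and 335. Of 12 genes of myelinating cells, 5 stood at 50 or more (63.4% of all genes did) and 7 were under. *Mbp*, a main protein of myelin, was at 442, 409 and 651, and *Cnp* at 221, 219.8 and 192. The late genes *Mog*, *Aspa* and *Mobp* were under 50, at 7.16, 8.50 and 7.73 for *Mog*, at 16.6, 15.4 and 14.7 for *Aspa* and at 30.1, 28.9 and 26.5 for *Mobp*. Precursor genes were thus all present at the limit of 50, whereas the myelin genes present numbered 8 of 12 at a limit of 32 and 2 at 100.

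Genes of progenitors and of division were also found. Of 14 progenitor genes 12 stood at 50 or more, with *Vim*, an intermediate filament, at 2047, 2167 and 1867, *Sox2* at 1153, 1213 and 1276 and *Nes* at 230.2, 241 and 190.2. *Eomes*, which marks intermediate progenitors of the cortex, was under 50 at 39.7, 33.4 and 35.98, and *Neurog1* likewise at 37.3, 36.1 and 37.97. Of 14 genes of dividing cells 13 stood at 50 or more, with *Mki67* at 309.5, 283 and 244 and *Top2a*, the topoisomerase of replicating cells, at 294, 299 and 341. Their levels were moderate, with a list median of 115.8, and with the median probe set of each gene 8 of 14 stood at 50 or more. Astrocytes and oligodendrocyte precursors also express *Vim*, *Sox2* and *Nes*, and the arrays cannot show in which cells the genes were read.

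Markers of immune and vascular cells were mostly under 50. Of 20 genes of microglia and macrophages 15 were under 50 on all arrays, where 33.0% of all genes were. Another 3 stood at 50 or more, or 5 without replicate 7. The complement genes *C1qa*, *C1qb* and *C1qc* were at 13.9, 14.3 and 19.9 for *C1qa*, at 10.4, 8.40 and 8.50 for *C1qb* and at 17.1, 17.9 and 21.5 for *C1qc*, and the defining markers *Cx3cr1* and *P2ry12* were at 19.1, 19.1 and 15.5 for *Cx3cr1* and at 10.3, 11.1 and 10.8 for *P2ry12*. *Cd68*, a lysosomal protein, was the highest at 141, 88.1 and 188, and *Csf1r*, the receptor for the growth factor of microglia, was at 100.2, 107 and 92.1. The summed level of the 20 genes was between 646.4 and 731.1 on the 3 arrays. Among endothelial genes, 8 of 11 were under 50, with *Cldn5*, a tight junction gene, at 25.5, 30.1 and 28.7 and *Pecam1* at 13.01, 16.3 and 15.6; 1 was at 50 or more, or 2 without replicate 5. Pericyte and smooth muscle genes were under 50 in 6 of 10 and at 50 or more in 1, or 2 without replicate 7.

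Meningeal fibroblast genes were under 50 in 8 of 12, where 33.0% of all genes were. Among them were *Col1a1* at 17.1, 16.2 and 13.5 and *Col3a1* at 8.34, 7.24 and 7.97. *Dcn*, which encodes the proteoglycan decorin, stood apart from the rest of that list at 939.6, 804 and 760.4, highest on replicate 5. The second probe set of *Dcn* was under 50 on all arrays, at 18.83, 17 and 20.04, so the 2 probe sets of this gene disagree. Choroid plexus and ependyma genes were under 50 in 7 of 10, and *Ttr*, the transthyretin of choroid plexus, was at 85.2, 99.8 and 145. Red blood cell genes were under 50 in 5 of 6, with *Hba-a1* at 17.9, 17.8 and 17.1, and 0 were at 50 or more on all arrays, or 1 without replicate 6.

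The limit of 50 did not separate expressed from silent genes cleanly. Of 39 genes of other organs, chosen from liver, muscle, skin, pancreas, lung, gut, kidney, testis and the like, 29 were under 50 and 10 at 50 or more, with a median of 19.5. *Alb*, the serum albumin of liver, was at 17.8, 15.5 and 17.7 and *Myh4*, a skeletal muscle myosin, at 13.8, 11.8 and 11.2. *Lor*, a skin protein, was nevertheless listed at 267, 308 and 253, *Krt10* at 224, 217 and 218 and *Acta1*, the actin of skeletal muscle, at 192, 195 and 197. A level above 50 but no higher than that of *Lor* therefore does not by itself show expression of a gene, and many genes counted as present here lie in that range. Among neuronal and regional genes named above these include *Tbr1*, *Foxp2*, *Emx1*, *Dlx2*, *Dlx5*, *Lhx6*, *Npy*, *Pvalb*, *Drd1*, *Drd2*, *Ppp1r1b* and the 4 *Hox* genes. Among the other genes named above they include *S100b*, *Nes*, *Cd68*, *Csf1r*, *Cnp*, *Ttr* and *Gusb*. Among receptor genes named below they include *Cacng8*, *Grin3a*, *Grin2d*, *Gabrd*, *Chrna7*, *Chrna4*, *Chrnb2*, *Chrnd*, *Htr1b*, *Htr7* and *Hrh1*. The channel gene *Scn1a*, the scaffold gene *Shank1* and the activity-dependent *Arc* and *Ptgs2* are others. Medians of several lists above lie in this range too: 50.4 for thalamic, 115.8 for dividing cell and 138.3 for progenitor genes. They were 153.6 for striatal genes, 190.3 for GABA neurons, 227.4 for interneuron classes and 274.1 for forebrain factors. Lists with many genes near 50 therefore had other counts at other limits. At 32 and at 100, respectively, 8 and 2 of 12 myelin genes, 6 and 0 of 20 microglial, 4 and 0 of 11 endothelial, 6 and 0 of 10 pericyte, 8 and 0 of 27 *Hox* and 11 and 3 of 19 monoamine and cholinergic genes reached the limit on all arrays.

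**Figure D2:**
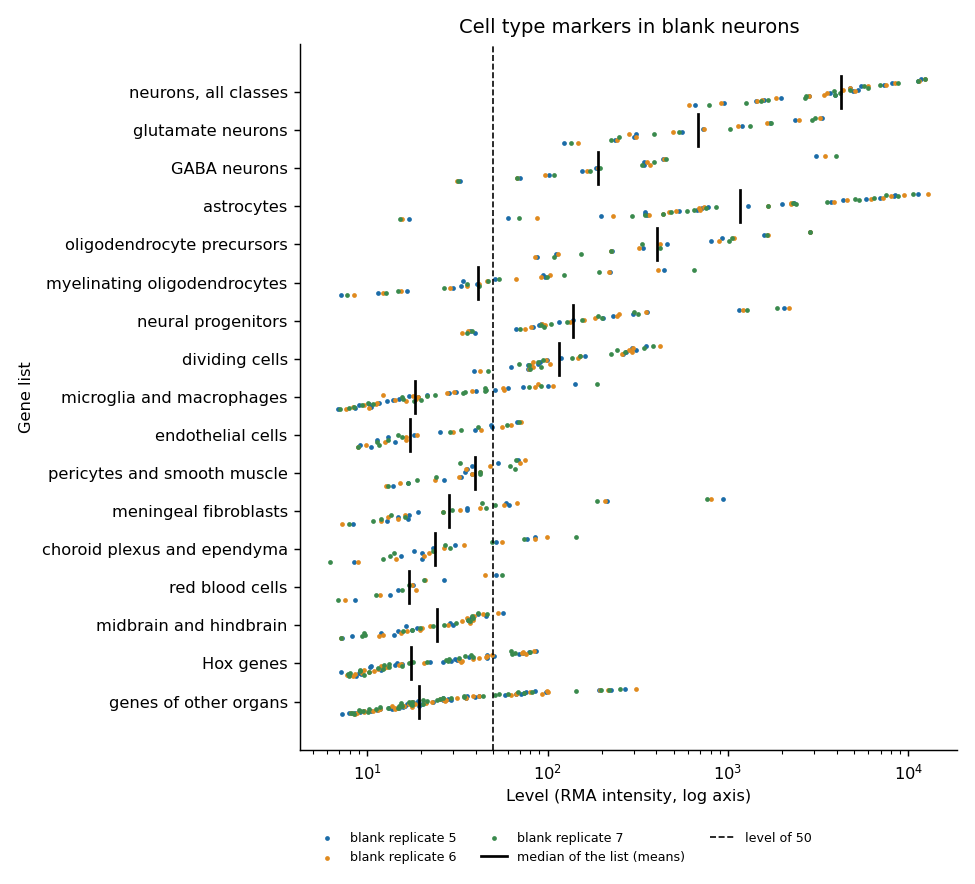
Level of each gene (x axis, RMA intensity, log axis) in 17 gene lists (rows), with 1 point per gene and array coloured by replicate, points of a list shifted upward by rank, the median of gene means as a bar and the level of 50 dashed. Neuron, astrocyte and precursor markers lie to the right of 50, and immune, vascular, hindbrain, *Hox* and other-organ genes mostly to the left, with *Dcn* as the far point among meningeal genes.

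Glutamate receptors were present broadly. AMPA receptors carry fast excitation, and all 15 of their named subunits and auxiliary proteins stood at 50 or more. *Gria2*, the subunit that limits calcium entry, stood at 3647, 3357 and 3699.5, *Gria1* at 1183, 1232 and 1444, *Gria3* at 704, 693 and 915 and *Gria4* at 454, 443 and 478. *Cnih2*, an auxiliary protein, was at 1918, 1921 and 2153 and *Cacng8*, which encodes a TARP that holds receptors at synapses, was the lowest, at 75.1, 85.9 and 93.5. All 8 kainate and delta receptor genes were present too, with *Neto2* at 818, 800.1 and 999 and *Grik5* at 527, 467 and 891. On replicate 7 *Grik5* was more than 1.5-fold above both other arrays.

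NMDA receptors, which gate plasticity, were divided between subunits. Of 6 with a named probe set, *Grin2b*, the subunit of developing cortex, stood at 550.1, 511 and 678, *Grin3a*, also an early subunit, at 155, 173 and 196 and *Grin2d* at 113, 116 and 109. *Grin2a*, which rises as cortex matures, was under 50 at 16.5, 18.2 and 16.4, on a single probe set, and *Grin2c*, a cerebellar subunit, at 19, 16.2 and 15.2. *Grin3b* lay on both sides of 50. All 6 metabotropic glutamate receptors were present, with *Grm7*, a presynaptic receptor, at 1219.6, 1099 and 1232, *Grm5*, a postsynaptic one, at 998, 875 and 1281, and *Grm3* at 895, 869 and 859.5.

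For inhibition, 9 of 15 GABA-A receptor genes stood at 50 or more and 5 were under, near the 63.4% of all genes. The alpha subunits *Gabra2*, *Gabra5*, *Gabra4* and *Gabra3* were present, with *Gabra2* at 1864, 1586 and 1496, *Gabra5* at 1479, 1419.9 and 1559 and *Gabra4* at 976, 1089 and 1187. The cerebellar *Gabra6* was at 11.1, 11.2 and 11.2 and the retinal *Gabrr1* at 32.2, 36.8 and 27.1. Among beta subunits *Gabrb1* stood at 2622, 2305 and 2484 and *Gabrb2* at 1141, 1242 and 1289, and *Gabrd*, the subunit of receptors outside synapses, at 140.3, 141 and 158. *Gabbr1*, of the metabotropic GABA-B receptor, was at 3512, 3381 and 3863. Of the glycine receptor alpha subunits only *Glra2*, the form of the developing brain, was at 50 or more, at 967, 892 and 1066, whereas *Glra1*, *Glra3* and *Glra4* were under, with *Glra1* at 11.4, 12.7 and 11.4. *Glrb*, the beta subunit, was at 938, 992 and 1306.

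Receptors of modulatory transmitters were present in part. Of 18 acetylcholine receptor genes 7 stood at 50 or more (63.4% of all genes did) and 10 were under, and at limits of 32 and 100 the count was 11 and 4. *Chrm1*, the main muscarinic receptor of cortex, was at 462, 494 and 533, and the nicotinic *Chrna7*, *Chrna4* and *Chrnb2* at 249.6, 227 and 256 for *Chrna7*, at 152, 168 and 155 for *Chrna4* and at 178, 155 and 200.1 for *Chrnb2*. *Chrnd*, a subunit of muscle receptors, was listed at 88.5, 75.4 and 71.2. Like *Chrna7*, *Chrna4* and *Chrnb2*, it lay in the range that genes of other organs reached. Of 13 serotonin receptors 6 were present (46.2%, against 63.4% of all genes), or 3 at a limit of 100. *Htr2c* stood at 885, 1079 and 1018, *Htr1b* at 141, 153 and 129 and *Htr7* at 117, 126 and 137. *Htr1b* and *Htr7* lay in the same range of other-organ genes. Of 10 dopamine, adrenergic and histamine receptors 6 were present, close to the share over all genes, with *Hrh1* at 260.1, 219.8 and 305, and *Drd3* was at 12.5, 9.87 and 10.8.

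*Cnr1*, the cannabinoid receptor of axon terminals, stood at 2481, 2476 and 2817, while *Cnr2*, the immune form, was at 13.2, 14.4 and 10.8. Their list of 17 adenosine, purine and cannabinoid receptors had 13 genes under 50, where 33.0% of all genes were. It had 2 genes at 50 or more, or 4 without replicate 7 and 8 at a limit of 32. Of 33 peptide receptors 15 (45.5%, against 63.4% of all genes) stood at 50 or more, or 9 at 100. Another 12 were under 50 and 6 lay on both sides. *Adcyap1r1*, the PACAP receptor, was at 766, 779.8 and 893, *Cckbr*, the brain cholecystokinin receptor, at 674, 657 and 707, and the neurotensin receptors *Ntsr2* and *Ntsr1* at 713, 708 and 589.9 for *Ntsr2* and at 506, 493 and 605 for *Ntsr1*. Named opioid receptors were near or under the limit, with *Oprm1* at 48.3, 57.99 and 49.4 and *Oprk1* at 31.2, 35.5 and 25.3, whereas the related *Oprl1* stood at 303, 327 and 382.

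**Figure D3:**
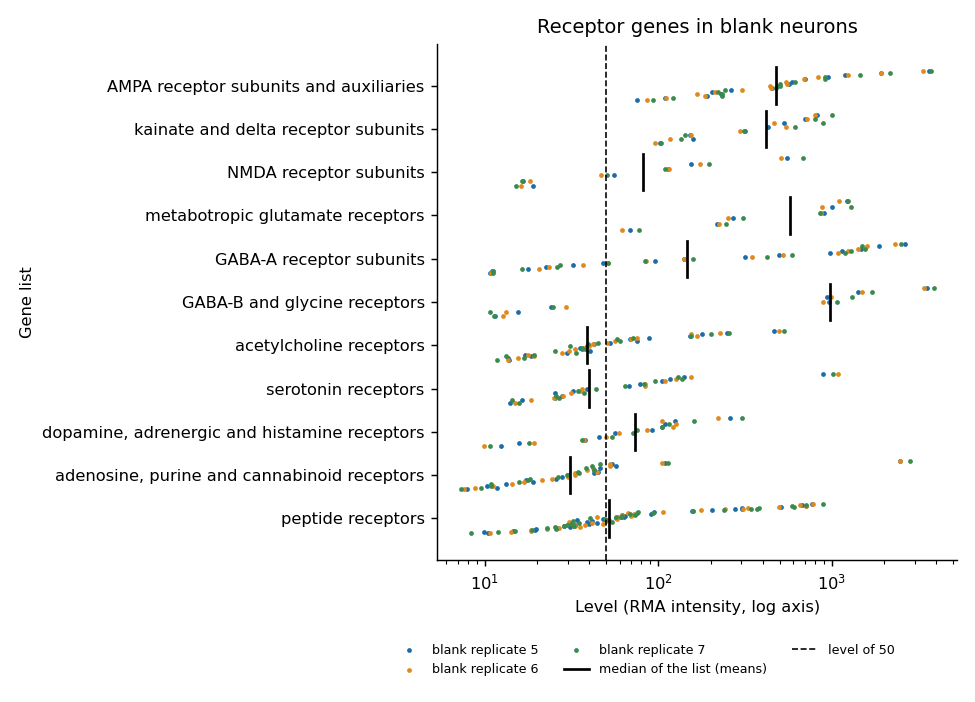
Level of each receptor gene (x axis, RMA intensity, log axis) in 11 lists (rows), with 1 point per gene and array coloured by replicate, points of a list shifted upward by rank, the median of gene means as a bar and the level of 50 dashed. AMPA, kainate and metabotropic glutamate receptors lie to the right of 50, and the other lists run across it, with *Cnr1* the far point of its list near 2591.

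Peptide precursors and granule proteins were present in 19 of 27 cases (70.4%, near the 63.4% of all genes), and 2 were under 50. The granule proteins *Scg2*, *Chgb* and *Vgf* stood at 4985, 3811 and 6056 for *Scg2*, at 3703, 3260.0 and 4131 for *Chgb* and at 2892, 2387 and 3361 for *Vgf*, each lowest on replicate 6 and highest on replicate 7. *Cck* was at 2337, 2263 and 2266 and *Grp*, the gastrin-releasing peptide, at 882, 816 and 1084. *Tac1* was at 540.3, 448 and 499 and *Penk*, the enkephalin precursor, at 208, 172 and 252. Of 27 members, 12 of the 19 present were lowest on replicate 6, where 51.0% of all present genes were lowest. With the arrays scaled to the same median over present genes this was 8 of 19, against 24.6% of all, and over all probe sets 13 of 19, against 56.9%.

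Growth factor genes and their receptors stood at 50 or more in 15 of 20 cases (75%, against 63.4% of all genes). *Ntrk2*, the receptor of BDNF, was at 3147, 3262 and 3236, and *Bdnf* itself at 1891, 1211 and 1737, lowest on replicate 6. *Ntrk3*, the receptor of neurotrophin 3, was at 596, 561 and 636 and *Met*, the hepatocyte growth factor receptor, at 1963, 2019 and 2278. *Erbb3* and *Ntf5* were under 50, at 28.3, 22.2 and 20.4 for *Erbb3* and at 19.04, 19.7 and 24.03 for *Ntf5*.

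Voltage-gated channels carry the action potential and calcium entry. Of 11 sodium channel genes 6 were present, near the 63.4% of all genes, with the pore subunits *Scn2a* at 1883, 1894 and 2016, *Scn8a* at 604, 600.1 and 691, *Scn3a*, the embryonic form, at 385, 436 and 462 and *Scn1a*, a form that rises later, at 128, 119 and 151. The peripheral nerve forms *Scn9a*, *Scn10a* and *Scn11a* were under 50, with *Scn10a* at 11.9, 13.97 and 10.3. Of 11 calcium and HCN channels 9 were present, and *Cacna1f* of retina and *Cacna1s* of muscle were under 50, at 20.7, 20.7 and 22.3 for *Cacna1f* and at 13.7, 13.7 and 10.97 for *Cacna1s*. The chloride transporters *Slc12a5* (KCC2), which lowers chloride in maturing neurons, and *Slc12a2* (NKCC1), which raises it in young ones, stood at 2704, 2689 and 2852 for *Slc12a5* and at 731, 740.3 and 821 for *Slc12a2*. Both were therefore read on all arrays, as were *Sox11* and *Sox4*, factors of immature neurons. *Sox4* stood at 4890.5, 4341 and 5149. *Sox11* stood at 1895.4, 1715 and 1057, at least 1.5-fold below both other arrays on replicate 7.

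Synaptic genes were nearly all present. Of 23 presynaptic genes 20 stood at 50 or more, with a median of 2038, and 15 of the 23 had a mean of 1000 or more, against 12.8% of all genes. *Snap25* and *Syt1*, of the vesicle fusion machinery, were at 8095, 8406 and 8725 for *Snap25* and at 5479.6, 5971 and 5639 for *Syt1*. *Syp*, a vesicle membrane protein, was at 3190.0, 2990.4 and 3741. *Syt2*, the calcium sensor of fast and late-maturing synapses, was under 50 at 41.6, 35.2 and 34.3, as were *Cplx3* and *Sv2c*. All 22 postsynaptic scaffold and adhesion genes stood at 50 or more. *Dlg4*, which encodes PSD-95, was at 908, 879 and 881, *Homer1* at 1484, 1449.7 and 1678 and *Nlgn2*, the neuroligin of inhibitory synapses, at 1260.4, 1175 and 1841. *Shank1* was the lowest, at 64.2, 72.4 and 54.2. The 6 genes whose knockdown the wider study addressed and that are named here were present without hairpins on every array, from *Mef2a*, an activity-regulated transcription factor, at 1428 ± 112 (SD, n = 3) to *Nlgn3*, a neuroligin, at 388 ± 81.2 (SD, n = 3).

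*Xist*, the RNA of the inactive X chromosome in female cells, stood at 2315, 2189.7 and 1766, and the Y-linked *Eif2s3y* at 126, 145 and 186, within the range that genes of other organs reached. *Xist* was lowest and *Eif2s3y* highest on replicate 7, and the Y-linked *Kdm5d* was also highest there, at 39.98, 54.9 and 70.9, around the limit. Of 6 sex-linked genes at 50 or more, 5 were highest on replicate 7, where 61.6% of all present genes were. These 5 included the X-linked *Eif2s3x*, *Ddx3x*, *Kdm5c* and *Kdm6a*, at 116%, 110%, 107% and 106% of their means. A rise on replicate 7 was thus not particular to Y-linked genes. The Y-linked *Uty* and *Usp9y* were under 50, at 22.8, 31.2 and 29.9 for *Uty* and at 10.2, 12.8 and 10.3 for *Usp9y*. The shares of female and male cells in the 3 cultures were not measured otherwise.

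The 3 arrays were close to each other. Over 42596 probe sets r between arrays on the log2 scale was 0.997 for replicates 5 and 6, 0.995 for 5 and 7 and 0.994 for 6 and 7. Across the 11480 present genes the SD of the log2 level between arrays had a median of 0.11, or a coefficient of variation of 7.85%. The spread fell with level, from a median SD of 0.14 for genes with a mean from 50 to 100 down to 0.055 for genes at 5000 or more. In 94.7% of the genes the coefficient of variation was under 20%, and in 99.4% under 30%. Over 2 arrays the median SD was 0.064 without replicate 7, 0.12 without replicate 5 and 0.10 without replicate 6. An SD over 2 arrays is not on a par with one over 3, so these are to be compared with each other.

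Replicate 7 stood apart from the other blank arrays. It held the highest level of the 3 in 61.6% of present genes and the lowest in 20.1%, and 86 genes (0.749%) were at least 1.5-fold above both other arrays and 18 (0.157%) as far below both. On replicate 5 these counts were 3 and 1 (0.0261% and 0.00871%), and on replicate 6 they were 1 and 8 (0.00871% and 0.0697%). The direction of the excess depended on scaling. The median of present genes on replicate 7 was 379.2, against 347.5 and 335.9 on replicates 5 and 6, a log2 difference of 0.10 from the mean of the others. With the arrays scaled to the same median over present genes, 17 genes were above and 53 below both others on replicate 7, so the excess turned from above to below. With scaling over all probe sets it did not turn, with 126 above and 12 below, and with quantile normalization the counts were 34 above and 27 below. In the scaled counts the genes at 50 or more were taken again after scaling. The part of the scaling, of RNA quality and of the culture in these differences was not tested.

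Among the 20 genes with the largest spread, replicate 7 was the array farthest from the others in 17. *Scrn2* had the largest SD, 0.98 on the log2 scale, at 207, 168.9 and 58.2. *Ddit4*, a stress-induced inhibitor of mTOR signaling, was next with 0.75, at 1036, 1404 and 2869. *E2f5*, a cell cycle transcription factor, had 0.71, at 434, 484 and 197. The values of *Scrn2* and *E2f5* rest on 1 probe set each, and their other probe sets did not show the drop on replicate 7 to that extent. For *E2f5* those stood at 188.6, 166.7 and 209.2 and at 167.1, 168.96 and 183.3.

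Other members of the 20 encode synaptic and matrix proteins. *Nptx2*, a secreted protein that gathers AMPA receptors at synapses, stood at 468, 277 and 623, and *Kcnj4*, an inward rectifier potassium channel, at 177, 251 and 389.9. *Acan*, the aggrecan of perineuronal nets, was at 105, 89.5 and 181 and *Crhbp*, which binds corticotropin-releasing hormone, at 217, 142 and 303. *Gadd45a*, a gene of the DNA damage response, was at 115, 79.4 and 171 and *Tubb6*, a tubulin, at 53.02, 56.4 and 107. In these 6 genes the highest array was replicate 7, and in *Nptx2*, *Crhbp*, *Acan* and *Gadd45a* the lowest was replicate 6. The 5 genes with the smallest SD were *Ogfr*, *Ccdc77*, *Trim34a*, *Vps35* and *Tusc3*. Among them *Vps35*, a subunit of the retromer that sorts membrane proteins, stood at 3817, 3827 and 3816.

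**Figure D4:**
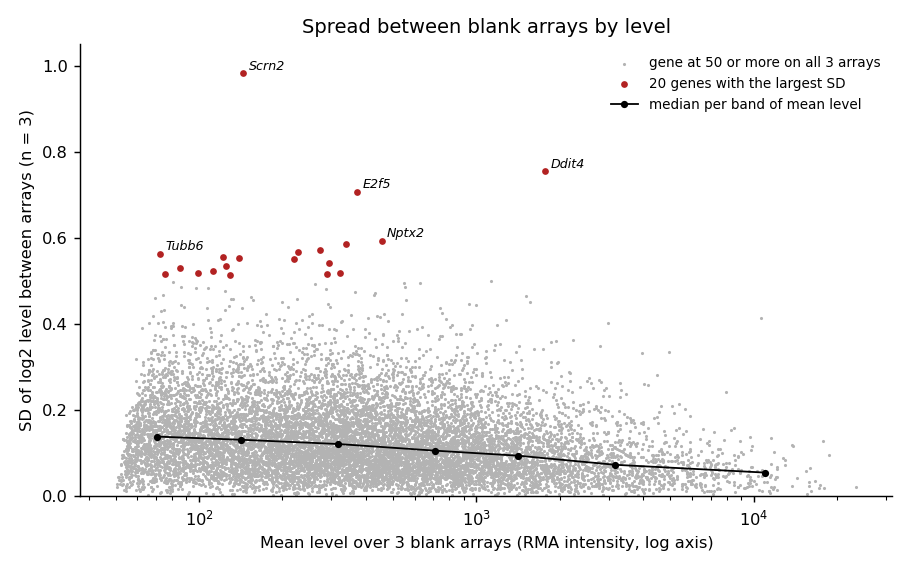
SD of the log2 level between the 3 blank arrays (y axis) against the mean level (x axis, RMA intensity, log axis) for 11480 genes, with the 20 genes of largest SD in red, 5 of them named, and the median of each band of level in black. The band medians fall from 0.14 to 0.055, and *Scrn2* and *Ddit4* lie above all other genes.

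Genes induced by neuronal activity were among those that varied. Of 30 named members 28 stood at 50 or more on all arrays, and their median SD was 0.17 against 0.11 over all present genes. This spread was not particular to them. The median SD was also 0.17 for peptide precursors and granule proteins and for growth factor genes and receptors, and 0.20 for myelin genes. It was lower in other lists, such as 0.09 for general neuron markers and 0.07 for housekeeping genes. *Fos* and *Egr1*, immediate early transcription factors, stood at 2241, 1952 and 1869 for *Fos* and at 1853, 1936 and 2252 for *Egr1*. *Npas4*, which responds to calcium entry, was at 325, 356 and 319 and *Arc*, a regulator of synaptic strength, at 136, 103 and 152. *Inhba*, which encodes a subunit of activin, was at 517, 285 and 487 and *Ptgs2*, which encodes the cyclooxygenase COX-2, at 145, 85.1 and 140.3.

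Replicate 6 was the lowest array in 23 of the 28 activity-dependent genes, where 51.0% of all present genes were lowest on it. With the arrays scaled to the same median over present genes the count was 17 of 28, against 24.6% of all. With scaling over all probe sets it was 24 of 28, against 56.9%, and with quantile normalization 19 of 28, against 33.9%. The genes that lay at least 1.5-fold below both other arrays on replicate 6 were *Nptx2*, *Inhba*, *Ptgs2*, *Cd68*, *Crhbp*, *Zbed5*, *Csrp2* and *Kdelr3*, and the first 3 belong to this list. With scaling over present genes 6 genes lay as far below, of which 2 belong to it, and with scaling over all probe sets 8 did. *Bdnf* was at 75.1% of its mean on replicate 6. The 5 genes not lowest on replicate 6 were *Fos*, *Egr3*, *Npas4* and *Nr4a1*, lowest on replicate 7, and *Egr1*, lowest on replicate 5. No treatment differs between the arrays by the labels, and the part of culture, harvest or RNA quality in this pattern was not tested.

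**Figure D5:**
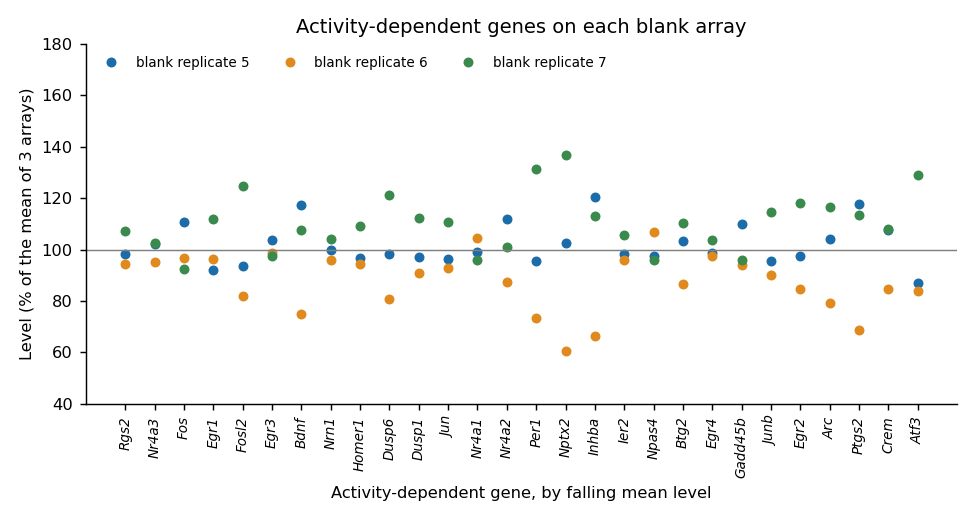
Level of each of 28 activity-dependent genes on each blank array as a percent of its mean over the 3 arrays (y axis), ordered by falling mean level (x axis), with 1 point per array. Replicate 6 is the lowest point in 23 of the 28 genes, and the range is widest for *Nptx2*.

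Promoter sequences were set beside the levels for genes with exactly 1 promoter in the RefSeq table of GRCm38.p6, 300 bases from 250 before to 50 after the start. Such a promoter existed for 66.4% of the genes under 50 on all arrays, 63.6% of those with a mean from 50 to 1000 and 64.6% of those with a mean of 1000 or more. These shares are too low for the values to stand for each class, so a check of sequence against level is void and the values describe only these genes. CpG dinucleotides were counted against the number that the C and G content gives (observed over expected). The median ratio was 0.30 under 50, 0.78 between and 0.82 at 1000 or more. The letters TATAAA on either strand were found in 16.8%, 6.44% and 7.29%, and in 10.2% of the promoters of all genes measured. The letters CCAAT on either strand were found in 38.0%, 38.5% and 40.04%.

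The range is shown by 6 promoters: those of 2 genes among the 25 highest (*Basp1* and *Tubb2a*), an interneuron peptide that was present (*Sst*) and one that was under 50 (*Vip*), an astrocyte gene (*Fabp7*) and a microglial gene under 50 (*C1qb*). Each line gives the 120 bases before the start, 5′ to 3′ on the gene's strand, with CG dinucleotides and TATAAA in capitals (RefSeq, GRCm38.p6).
Basp1, chr15:25413765-25413884, - strand: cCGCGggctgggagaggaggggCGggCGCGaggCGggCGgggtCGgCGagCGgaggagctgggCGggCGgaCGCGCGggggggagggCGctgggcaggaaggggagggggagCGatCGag
Tubb2a, chr13:34078009-34078128, - strand: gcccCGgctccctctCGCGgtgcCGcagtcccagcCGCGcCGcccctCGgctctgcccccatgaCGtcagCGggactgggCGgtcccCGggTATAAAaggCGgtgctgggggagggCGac
Sst, chr16:23890845-23890964, - strand: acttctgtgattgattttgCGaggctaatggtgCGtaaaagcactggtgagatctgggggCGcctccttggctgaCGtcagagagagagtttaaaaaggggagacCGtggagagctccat
Vip, chr10:5639098-5639217, + strand: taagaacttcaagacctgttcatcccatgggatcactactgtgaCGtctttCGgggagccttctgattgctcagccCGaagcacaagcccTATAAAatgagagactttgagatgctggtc
Fabp7, chr10:57784803-57784922, + strand: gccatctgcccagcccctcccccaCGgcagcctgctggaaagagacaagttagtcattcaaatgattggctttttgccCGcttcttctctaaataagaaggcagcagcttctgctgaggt
C1qb, chr4:136886201-136886320, - strand: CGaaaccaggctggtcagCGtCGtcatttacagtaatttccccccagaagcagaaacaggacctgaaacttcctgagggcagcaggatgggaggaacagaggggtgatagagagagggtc
The stretch of *Basp1* holds 18 CG dinucleotides and that of *Tubb2a* 14 with a TATAAA. *Sst* holds 5, *Vip* 3 with a TATAAA, *C1qb* 3 and *Fabp7* 2.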

How the data were processed

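Total RNA of 3 blank samples was hybridised, 1 array each, to Affymetrix mouse 430 2.0 arrays. The scans were normalized by the authors with RMA (version not given in the sources used here). Values were deposited as intensity on a linear scale. For RNA extraction the labels name Trizol and the methods an RNeasy kit. A free-text label also mentions hairpins for these samples, so their condition rests on the treatment label. Blank columns were moved up by 1 row (45101 probe sets), and 64 controls and 2441 probe sets with _x in the name were left out. Only the columns of the 7 samples of the series were kept from the deposited values. Genes were named from the platform annotation, with 17936 of 18093 symbols matched by gene ID to RefSeq, and some genes are not reported here. Counts, means, SDs and correlations were computed in Python 3.11.15 (pandas 2.3.3, numpy 2.4.6) after being tested on simulated data. With 1 group of 3 arrays no test was made, and the number of arrays limits the precision.

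Named are the 25 highest genes, the 20 with the largest and 5 with the smallest SD, and, for each list, up to 6 highest members, up to 6 under 50 and any member whose role is described. Members and lists were chosen with earlier results of these data known. Alternatives were limits of 32 and 100, keeping _x or several-gene probe sets, the median probe set, quantile normalization, scaling to the same median and leaving out each array.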

Additional observations from a re-analysis of the deposited data

How the results depend on the processing

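Genes under 50 on all arrays numbered between 4552 (limit of 32) and 7937 (limit of 100) against 5972, and genes at 50 or more between 9587 and 12805 against 11480, all within 1.5 times. The median SD of log2 levels was 0.11, with a range of 0.064 to 0.12 when 1 array was left out, the lowest being the value without replicate 7 (0.064). For replicate 7, genes at least 1.5-fold above both others numbered 86 as deposited, 34 after quantile normalization and 17 with scaling over present genes, and 126 with scaling over all probe sets. Genes as far below numbered 18, then 27, 53 and 12. These scalings were applied to the counts after seeing the data. The count of members present moved by over 1.5 times in 13 of 47 lists at a limit of 100, in 12 at 32, in 7 with the median probe set and in 4 without replicate 7. With the median probe set of a gene, 337 of 708 named levels moved by over 1 SD. No paired analysis was possible because the blank replicate numbers (5 to 7) are not shared with another group and no groups were compared.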

Other observations

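Gene families were also read by the first letters of their symbols, chosen after values were seen and therefore only described. All 39 olfactory receptor genes (*Olfr*) were under 50 on all arrays, as were 30 of 32 vomeronasal receptor genes (*Vmn*), with median levels of 14.7 and 9.29. Of 73 cytochrome P450 genes (*Cyp*) 55 were under 50, and the highest was *Cyp51*, an enzyme of cholesterol synthesis, at 1755, 1656 and 1829.9. Of 44 genes of respiratory complex I and its assembly (*Nduf*) 43 stood at 50 or more, with a median of 2829 and a median SD of 0.062 on the log2 scale, and all 6 14-3-3 genes (*Ywha*) did, with a median of 7982. Of 84 potassium channel genes (*Kcn*) 54 stood at 50 or more, close to the 63.4% of all genes, and the highest were *Kcnq3*, at 1873, 1905 and 1545, *Kcnmb4* and *Kcnd2*. Of 332 zinc finger genes (*Zfp*) 262 stood at 50 or more, with a median level of 138.1.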
